A study of Nicotiana tabacum and Solanum tuberosum subsp. andigenum and Nicotiana sylvestris with 28 samples.

Results

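Phytochrome B (phyB) is a red-light photoreceptor that, once activated by red light, moves into the nucleus and alters the transcription of many genes, and far-red light or darkness returns it to the inactive form. In potato it represses tuber formation under long days. In leaves it also acts in responses that need no change of day length, among them shade responses and senescence. A group of cDNA clones is described here whose RNA differed in leaves with little phyB while the mean of a day-length comparison stayed small.

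The members were chosen by measured values, as the spots of a potato cDNA array that had a value on 9 potato arrays and met limits on 2 means. The mean log2 ratio between antisense plants with reduced phyB (α-PHYB) and wild type (WT) was at least 1 in size over 3 arrays, which is a 2-fold difference. The mean log2 ratio between plants moved to short days (SD) and plants kept in long days (LD) lay between -0.5 and 0.5 over 6 arrays. Of 32448 spots, 13827 had a value on all 9 arrays, 357 of these were past the α-PHYB limit, and 112 of the 357 met both limits. The other 245 had a photoperiod mean outside the limit, below -0.5 for 212 spots and above 0.5 for 33. No spot was left out because of its gene symbol. Both means were used to choose the members, so their values are a description and carry no test.

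Each array compared RNA of 2 groups of plants in 2 colours. The α-PHYB plants belonged to 1 antisense line (line 10) of Solanum tuberosum subsp. andigena and were kept in LD for 56 days, as were the WT plants they were set against (3 arrays). WT potato plants that had 1 or 15 days of SD at harvest on day 56 were set against WT plants kept in LD (3 arrays for each time, with 1 more array of replicate 1 of 15 days with the dyes exchanged). Nicotiana tabacum MM, which carries the Maryland Mammoth allele and flowers only in SD, and the isogenic cultivar Hicks, which flowers irrespective of day length, had the same transfer from LD to SD (6 arrays each). Nicotiana sylvestris, which flowers in LD, was moved the other way, to LD, and set against plants kept in SD (6 arrays). Days were lit for 16 h in LD and for 8 h in SD, and the irradiance was 80 μmol per square metre and second in LD and 160 in SD (22 °C in both), so that day length and irradiance cannot be told apart. By the methods LD leaves were harvested in light and SD leaves in darkness, and for potato the petioles were included. The labels give each array RNA extracts of its own apart from the array with exchanged dyes, and the methods describe 3 independent biological samples. Ratios are given here as α-PHYB/WT, SD/LD for potato, MM and Hicks, and LD/SD for N. sylvestris. The α-PHYB/WT and SD/LD ratios are the reverse of the study's own WT/α-PHYB and LD/SD. The LD/SD ratio of N. sylvestris runs the same way as the study's. The file does not state which way its ratios run. The methods define the ratios as LD or WT on top, and for potato, MM and Hicks the labels put that RNA in Cy3. Cy3 over Cy5 was therefore taken, so the signs there are likely rather than certain. For N. sylvestris the sample titles speak of a move to SD and the channel descriptions of a move to LD, and the channel descriptions were followed. These put LD in Cy5, so the argument from the methods does not hold for the N. sylvestris arrays. Cy3 over Cy5 was carried over to them from the other arrays, and their signs are less certain. A ratio holds no level, so the leaf label could not be checked by marker genes, nor the PHYB transcript by its level.

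Clones were printed as pairs of spots. The 112 spots belonged to 76 clones of 10684 with any value, and 36 clones had both spots in the group. Of the 40 clones with 1 spot in it, 21 had a partner that lacked a value on some of the 9 arrays. The other 19 partners missed a limit, 14 of them the α-PHYB limit and 5 the photoperiod limit. All 19 had the sign of their member spot, with mean ratios of 0.683 to 1.94 in size. Pairs of spots correlated with a median r of 0.890 per array, and below the 2 spots of a clone are averaged where both have a value. A clone is called by the number of its first spot.

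The limits cut through a continuum, as the plot of both means shows. The α-PHYB means nearest the lower limit were -1.001, -1.001 and -1.01 inside and -0.999, -0.998 and -0.996 outside, and those nearest the upper limit 1.002, 1.004 and 1.03 inside and 0.999, 0.997 and 0.992 outside. The photoperiod means nearest -0.5 were -0.499, -0.493 and -0.491 inside and -0.529, -0.537 and -0.538 outside. Nearest 0.5 they were 0.481, 0.478 and 0.452 inside and 0.512, 0.521 and 0.528 outside.

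**Figure D1:**
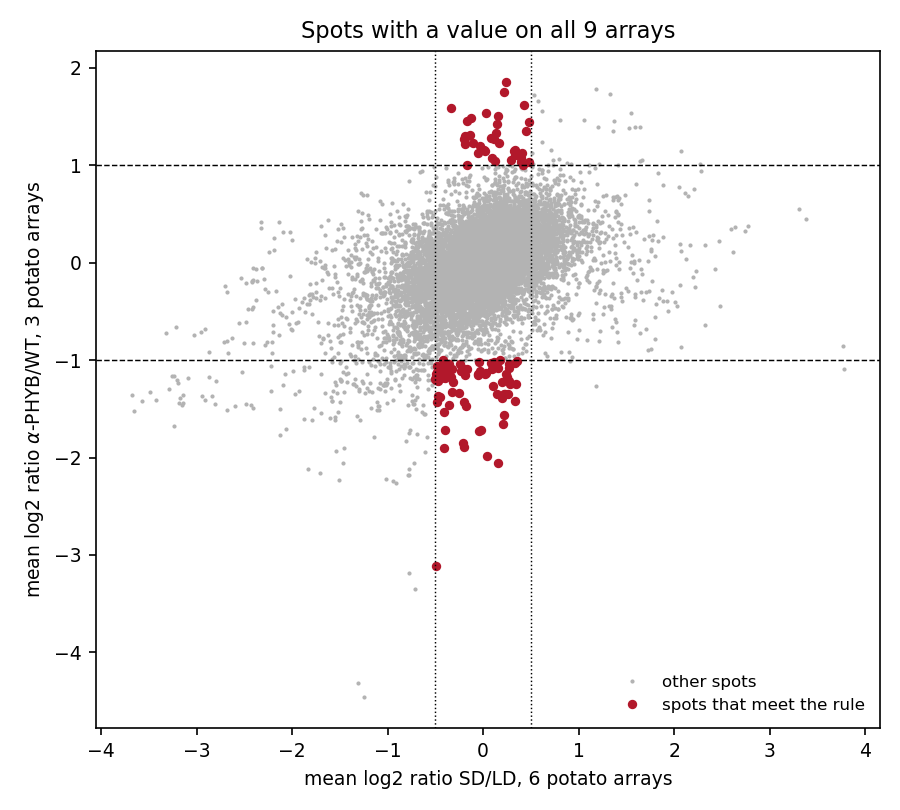
Mean log2 ratio α-PHYB/WT over 3 potato arrays (vertical axis) against mean log2 ratio SD/LD over 6 potato arrays (horizontal axis) for the 13827 spots with a value on all 9. Dashed and dotted lines are the limits of 1 and 0.5, and the 112 red spots meet both, 74 below and 38 above.

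Of the 76 clones, 49 had lower and 27 higher RNA in α-PHYB than in WT. The gene annotation gives a locus to 9 of the 76, at 7 loci, each known only by its number, and none to the other 67. No table used here says what these loci encode, so no role is given to any member. Keyword lists of the phyB and tuberization pathways could not be run for the same reason.

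The 3 α-PHYB arrays were not alike. Over 7898 clones the log2 ratios of replicates 1 and 2 correlated with an r of 0.780, those of 1 and 3 with 0.305 and those of 2 and 3 with 0.449. The members carried the same difference. Among the 49 clones lower in α-PHYB the median log2 ratio was -1.35, -1.40 and -0.87 on replicates 1, 2 and 3, and among the 27 higher clones 1.22, 1.41 and 1.17. All 27 higher clones were above 0 on all 3 arrays, whereas 41 of the 49 lower clones were below 0 on all 3. A size of at least 1 on each array was reached by 23 of the 76, 11 lower and 12 higher. Without replicate 3 the rule finds 275 spots, 101 of them among the 112. Leaving out replicate 1 or replicate 2 gave 97 spots each, with 78 and 77 of the 112. All 76 clones kept the sign of their mean without each replicate in turn, which their choice by this mean makes likely beforehand. For 10 clones the mean moved by more than 1.5 times, for 8 of them without replicate 3.

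**Figure D2:**
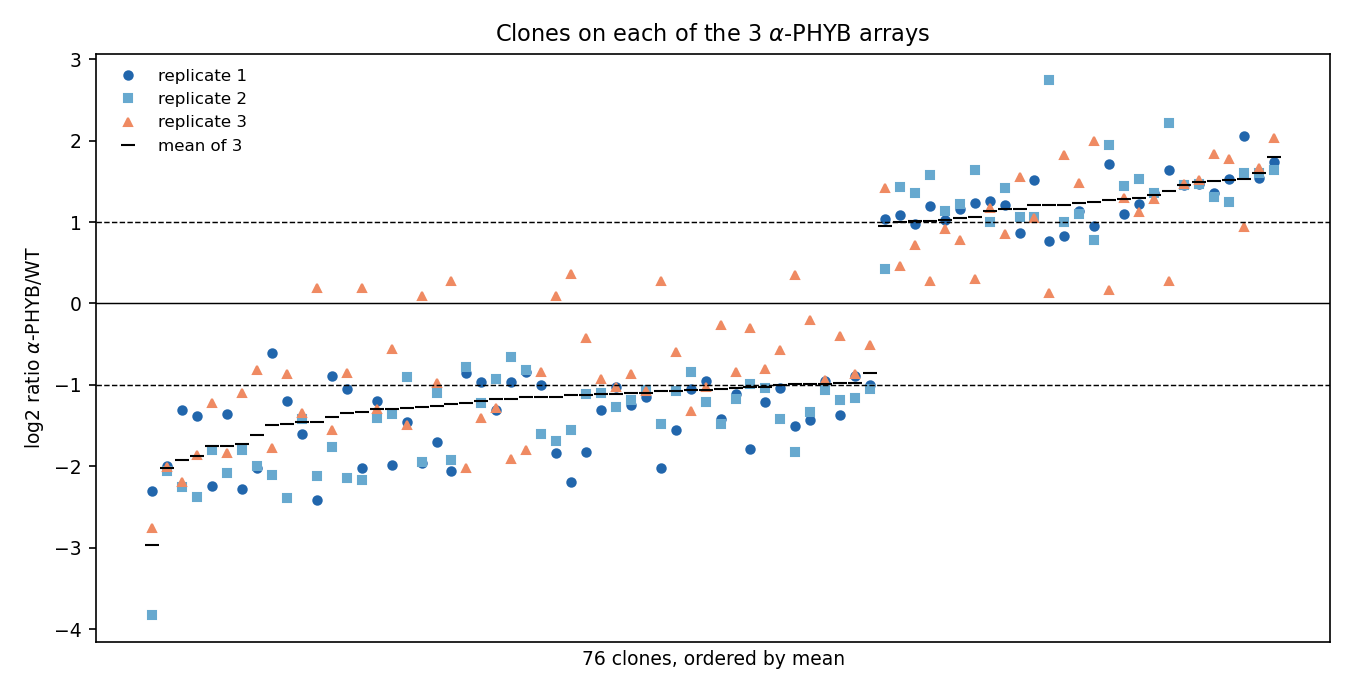
Log2 ratios α-PHYB/WT of the 76 clones on each of the 3 arrays (symbols) with their mean (bar), ordered by the mean. Dashed lines mark -1 and 1. The 8 clones with a triangle above 0 among the lower clones are those whose replicate 3 has the opposite sign.

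The clones named for the largest differences had 1 sign on all 3 arrays, which was a condition of naming them. In size their arrays often differed. The median SD over the 3 arrays was 0.51 for the 49 clones lower in α-PHYB and 0.28 for the 27 higher clones. Clone 156677 was lowest, with log2 ratios α-PHYB/WT of -2.30, -3.83 and -2.76, a mean of -2.96 ± 0.79 (SD, n = 3) or 7.80-fold lower. Clone 156270 had -1.996, -2.06 and -2.01, a mean of -2.02 ± 0.03 or 4.06-fold lower. These were the 2 clones of the 76 with a mean difference of 4-fold or more. Clones 148882 (-1.31, -2.26 and -2.19) and 140486 (-1.38, -2.38 and -1.86) followed, both weakest on replicate 1. Clone 150680 had -2.02, -1.996 and -0.82 and was weakest on replicate 3. The photoperiod means of the member spots were small by the rule, but clones 156677 and 148882 were below 0 on all 6 potato arrays. Clone 156677 had -0.64, -0.54 and -0.15 after 1 day of SD and -0.31, -0.98 and -0.33 after 15 days. Clone 148882 had -0.75, -0.76 and -0.58 and then -0.23, -0.66 and -0.09. Its mean over 2 spots was -0.51, with 1 spot (-0.411) inside and the other (-0.613) outside the photoperiod limit.

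In the other direction clone 149042 was highest, with 1.74, 1.64 and 2.03, a mean of 1.80 ± 0.20 (SD, n = 3) or 3.49-fold higher in α-PHYB. Clone 158469 had 1.54, 1.60 and 1.67, and clone 148648 had 1.45, 1.46 and 1.47. Clone 148648 had the smallest SD of the 76 clones (0.011), against a median SD over the members of 0.44 on the log2 scale (0.21 over 7898 clones). Clones 140612 (1.47, 1.47 and 1.51), 131290 (1.53, 1.25 and 1.77) and 153255 (1.36, 1.30 and 1.84) were past the limit on every array. Clones 159929 (2.06, 1.60 and 0.94) and 134540 (1.65, 2.22 and 0.27) were not, falling short on replicate 3.

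Among the annotated members, naming of which followed a look at their values, locus LOC102589596 stood out because all 3 of its clones on the array were members. Clone 132894 had log2 ratios of -2.28, -1.80 and -1.10, clone 147768 -2.24, -1.80 and -1.23, and clone 156991 -1.98, -1.36 and -0.56. The 3 clones share a locus and are not independent measurements of the genotype. They had the same order of arrays, lowest on replicate 1 and nearest to 0 on replicate 3. Their potato SD/LD means were 0.00, -0.05 and 0.17. Clones 147768 and 156991 had no value on any Nicotiana array.

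The clones of other loci were less alike. For LOC102577429, clone 147938 (-1.79, -0.99 and -0.30) was a member and clone 136829 (-1.75, -0.83 and -0.06) fell short with a mean of -0.88. Without replicate 1 the mean of clone 147938 was -0.64. For LOC102577637, clone 158810 (-1.83, -1.12 and -0.43) was a member, clone 159279 (-1.47, -0.89 and -0.23) fell short with a mean of -0.86, and clone 154026 (-0.30, -0.27 and -0.48) was near 0. In all of these clones but 154026, replicate 1 was the lowest and replicate 3 the nearest to 0.

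LOC102577893 had 4 clones, of which 2 had a value on all 3 α-PHYB arrays. Clone 131629 (-1.20, -2.39 and -0.87) was a member, whereas clone 134151 had -0.53, -0.55 and -0.10. LOC102577909 had 7 clones, of which 2 had a value on all 3 α-PHYB arrays. Clone 161189 (-0.96, -1.22 and -1.41) was a member, whereas clone 140583 had 0.10, -0.82 and -0.18. Clone 140583 lacked a value on some potato SD array and so could not be a member. Clones printed for 1 locus thus gave different ratios at both loci. The last 2 loci had 1 clone each. LOC102589208 (clone 135471) had -1.60, -1.42 and -1.34, alike on all 3 arrays. LOC102604256 (clone 135176) had 0.77, 2.74 and 0.13, so that its mean of 1.21 ± 1.36 (SD, n = 3) became 0.45 without replicate 2.

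The 8 clones of opposite sign on replicate 3 had ratios below -1 on replicates 1 and 2. Clone 159366 had -2.42, -2.12 and 0.19, clone 131433 -2.20, -1.55 and 0.37, and clone 134158 -2.06, -1.92 and 0.27. Clones 162329 (-2.02, -2.17 and 0.19), 153952 (-2.02, -1.49 and 0.28), 157101 (-1.96, -1.95 and 0.10), 131922 (-1.84, -1.69 and 0.10) and 137910 (-1.50, -1.82 and 0.35) were alike. They met the limit on the mean through 2 of the 3 samples, and without replicate 3 their means ranged from -2.27 (clone 159366) to -1.66 (clone 137910). Conversely, clones 134110 (-0.86, -0.78 and -2.02), 139518 (-0.96, -0.66 and -1.91) and 139574 (-0.85, -0.82 and -1.80) met it mainly through replicate 3.

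A small photoperiod mean did not make the single photoperiod values small. Of the 76 clones, 14 had all 6 potato SD/LD ratios within 0.5 of 0, and 18 had at least 1 array with a ratio of 1 or more in size (15.9% of 7898 clones). The mean after 1 day or after 15 days was past 0.5 in size for 26 clones, and the 2 means had opposite signs for 22. The median SD over the 6 arrays was 0.35 for the members and 0.22 over 7898 clones. Requiring the limit of each day on its own leaves 74 of the 112 spots, and a limit of 0.25 leaves 60. The group is therefore one of small mean ratios, and not of clones that were the same in SD and LD.

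Clone 159366 had the widest separation of the days. Its log2 ratios SD/LD were -1.65, -0.88 and -1.58 after 1 day of SD and 0.77, 1.38 and 0.84 after 15 days (0.75 for the first of these when averaged with the array of exchanged dyes). The values of the 2 times did not overlap and lay on opposite sides of 0, which gave a mean near 0. The difference of 15 days minus 1 day was 2.36 on the log2 scale (standard error 0.25, n = 3 arrays a time). Its adjusted p was 0.0210, from limma with Benjamini-Hochberg adjustment over 8272 clones. The rule limited the mean of these same arrays and not their difference. A clone with large ratios can meet it only where they cancel, so the test is not independent of the choice of members. Clone 159366 was the 1 member of 76 that passed, where 17 clones passed in all (0.206% of those tested, and 0.169% with a 2-fold size limit as well). The methods' t-test found no member and no clone, and without replicate 1 or replicate 2 clone 159366 no longer passed, although its difference was between 2.33 and 2.41. With the replicate number as a random block 2 members passed (43 clones in all, 0.52%) and as a fixed block 1 (24 clones, 0.29%).

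At an unadjusted p of 0.05 or less, 11 members had a day difference, against 310 of all 8272 clones (3.75%), on arrays that the rule also used. After clone 159366, the smallest p belonged to clone 153255. It had SD/LD ratios of 0.68, 0.96 and 0.91 after 1 day and 0.35, 0.15 and 0.25 after 15 days, a difference of -0.69 (adjusted p = 0.281, limma). Clone 131447 had 0.31, 0.96 and 0.70 after 1 day and -0.60, -0.40 and 0.12 after 15 days, without overlap (adjusted p = 0.453). Clones 131922 (-1.40, -1.17 and -0.08, then -0.09, 0.36 and -0.26) and 157101 (-1.08, -1.06 and 0.03, then -0.06, 0.23 and 0.03) were low on 2 of 3 arrays of 1 day. Over 7 potato arrays, the array of exchanged dyes included, these 2 clones correlated with an r of 0.979. The pair was picked from 21 member pairs with an r of 0.9 or more, so its high r was a condition of naming it.

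Clones 134061 and 134540 cancelled in another way, between replicates. Clone 134061 had 1.20, -0.06 and -0.78 after 1 day and -0.27, 1.48 and -2.32 after 15 days. Clone 134540 had 0.999, -0.43 and -0.73 and then -0.15, 1.40 and -2.14. The same arrays were high and low in both, with an r of 0.945 over 13 photoperiod arrays. This pair too was picked from the 21 with an r of 0.9 or more. Both were higher in α-PHYB on replicates 1 and 2 (1.71 and 1.94, and 1.65 and 2.22) and near 0 on replicate 3 (0.16 and 0.27).

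**Figure D3:**
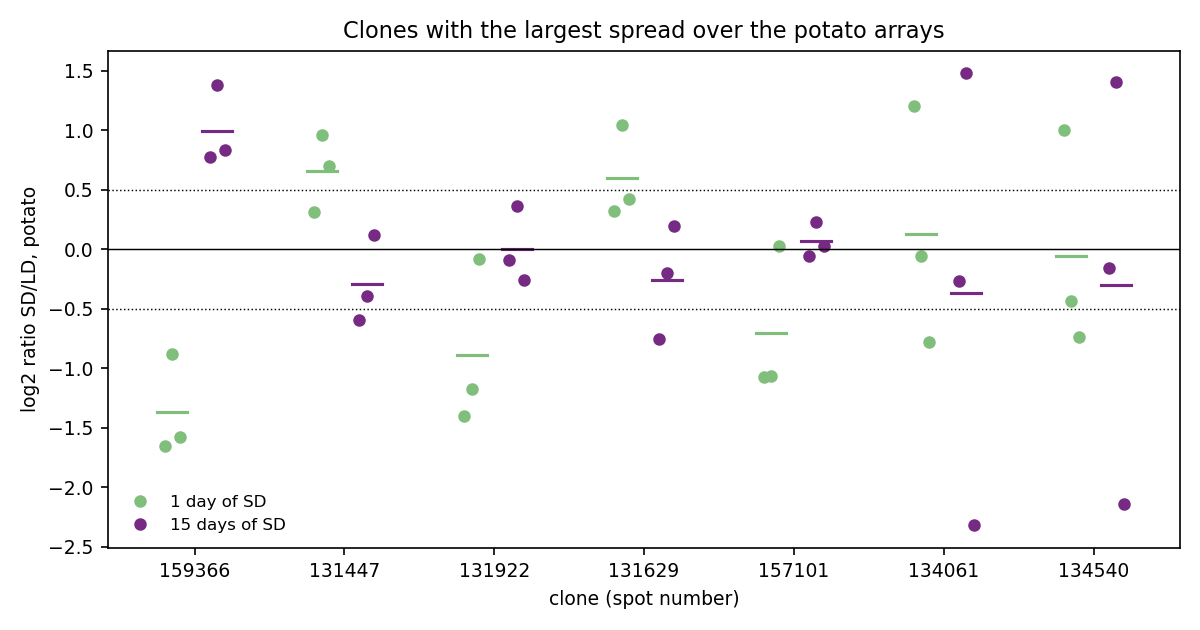
Log2 ratios SD/LD of 7 clones on the 6 potato arrays, 3 after 1 day and 3 after 15 days of SD, with the mean of each time as a bar. Dotted lines mark -0.5 and 0.5. The times of clone 159366 lie on opposite sides of 0, and clones 134061 and 134540 span -2.32 to 1.48 and -2.14 to 1.40.

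The dyes moved with a share of the members. On every array but 1 the RNA of α-PHYB or of the moved plants was in Cy5, so genotype and dye cannot be told apart in the α-PHYB comparison. Replicate 1 of 15 days of SD was also measured with the dyes exchanged. The difference of the 2 arrays divided by 2, called the dye term here, had an SD of 0.18 over 8388 clones. It was below -0.3 for 13 of 75 members with a value (5.26% of the 8388 clones) and above 0.3 for 3 (3.49%). It was below 0 for 36 of the 49 clones lower in α-PHYB and above 0 for 19 of the 26 higher clones. Over all clones with these values it was below 0 for 62.1% of 3777 lower clones and above 0 for 64.2% of 3880 higher clones. The dye term and the α-PHYB mean correlated with an r of 0.352 over the members and 0.376 over 7657 clones, which share the arrays. The largest dye term of a member was 0.72 in size and the smallest α-PHYB mean 0.85, so subtraction could change no sign. Subtracting the dye term left 44 of the 75 members at 1 or more in size. The rule applied to such values finds 85 spots, 64 of them among the 112.

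Of the 13 clones with a dye term below -0.3, 10 were lower in α-PHYB. Clone 136649 had α-PHYB/WT ratios of -1.35, -2.08 and -1.83. Its SD/LD ratio was -0.64 on replicate 1 of 15 days and 0.81 on the same RNA with exchanged dyes, and its α-PHYB mean of -1.76 became -1.03 after subtraction. Clone 152917 had -0.79 and 0.59 on these 2 arrays, clone 134351 -0.52 and 0.85, and clone 155981 -0.62 and 0.57. Clones 161189 (-0.37 and 0.80), 153538 (-0.60 and 0.28), 158477 (-0.55 and 0.21) and 148882 (-0.23 and 0.64) also changed sign with the dyes. Clones 154187 (0.20 and 1.43) and 155659 (0.77 and 1.60) did not. Of the 10, clone 136649 and clone 148882 (-1.92, and -1.48 after subtraction) stayed past the limit of 1.

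**Figure D4:**
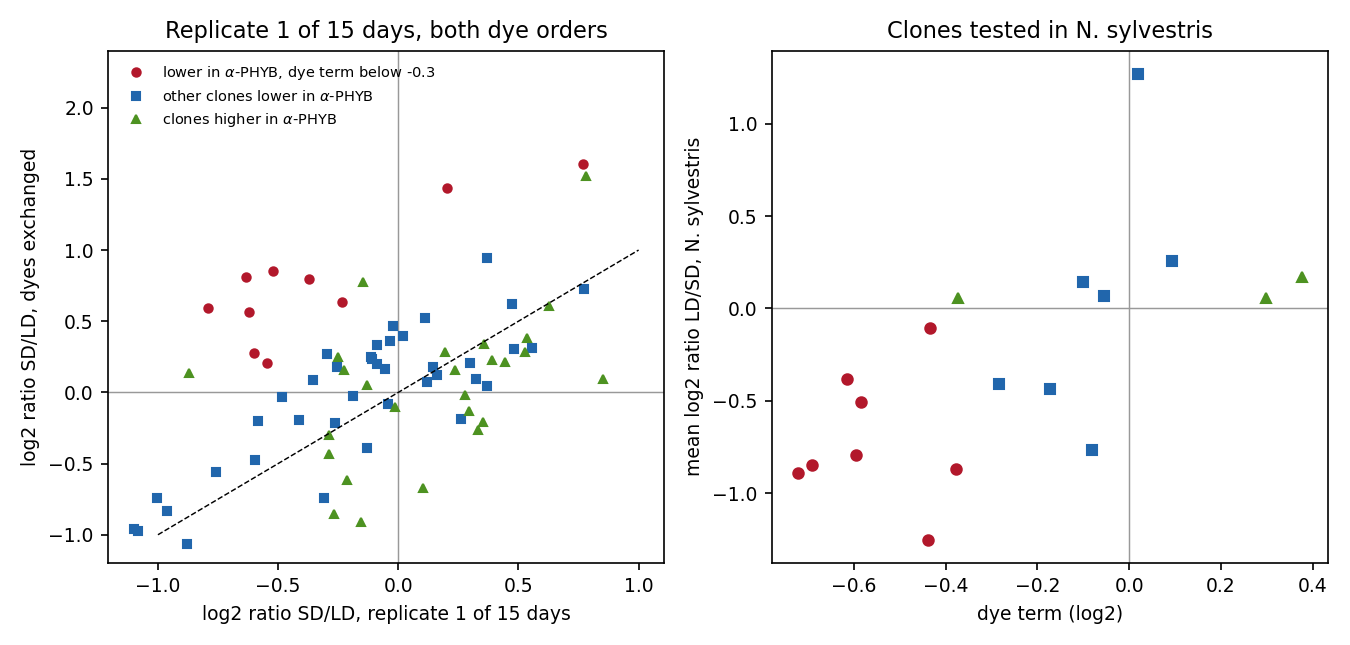
Left, log2 ratios SD/LD of the members on replicate 1 of 15 days of SD (horizontal axis) and on the same RNA with exchanged dyes (vertical axis), with the line of equality. Right, mean log2 ratio LD/SD in N. sylvestris against the dye term for 18 members. The 10 red clones have a dye term below -0.3, and the 8 of them tested in N. sylvestris lie between -1.25 and -0.11.

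The Nicotiana arrays were not used by the rule. Of the 76 members, 54 (71.1%) had a value on any Nicotiana array, against 92.4% of the 7898 clones with a value on all 9 potato arrays. All 6 MM arrays had a value for 26 members (34.2%, against 52.7% of the 7898 clones), all 6 Hicks arrays for 21 (27.6%, against 48.8%) and all 6 N. sylvestris arrays for 18 (23.7%, against 28.7%). Potato probes hybridized with RNA of another genus, and a missing value has no level. The tests below cover these clones only, and a clone passed at a p of 0.05 or less and an adjusted p of 0.1 or less (limma, mean of 6 arrays against 0). They treat the 6 arrays as independent, although same-numbered arrays were correlated in MM and N. sylvestris. A fixed replicate block leaves differences between replicates out of the error, so its counts speak for these replicates only.

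**Figure D5:**
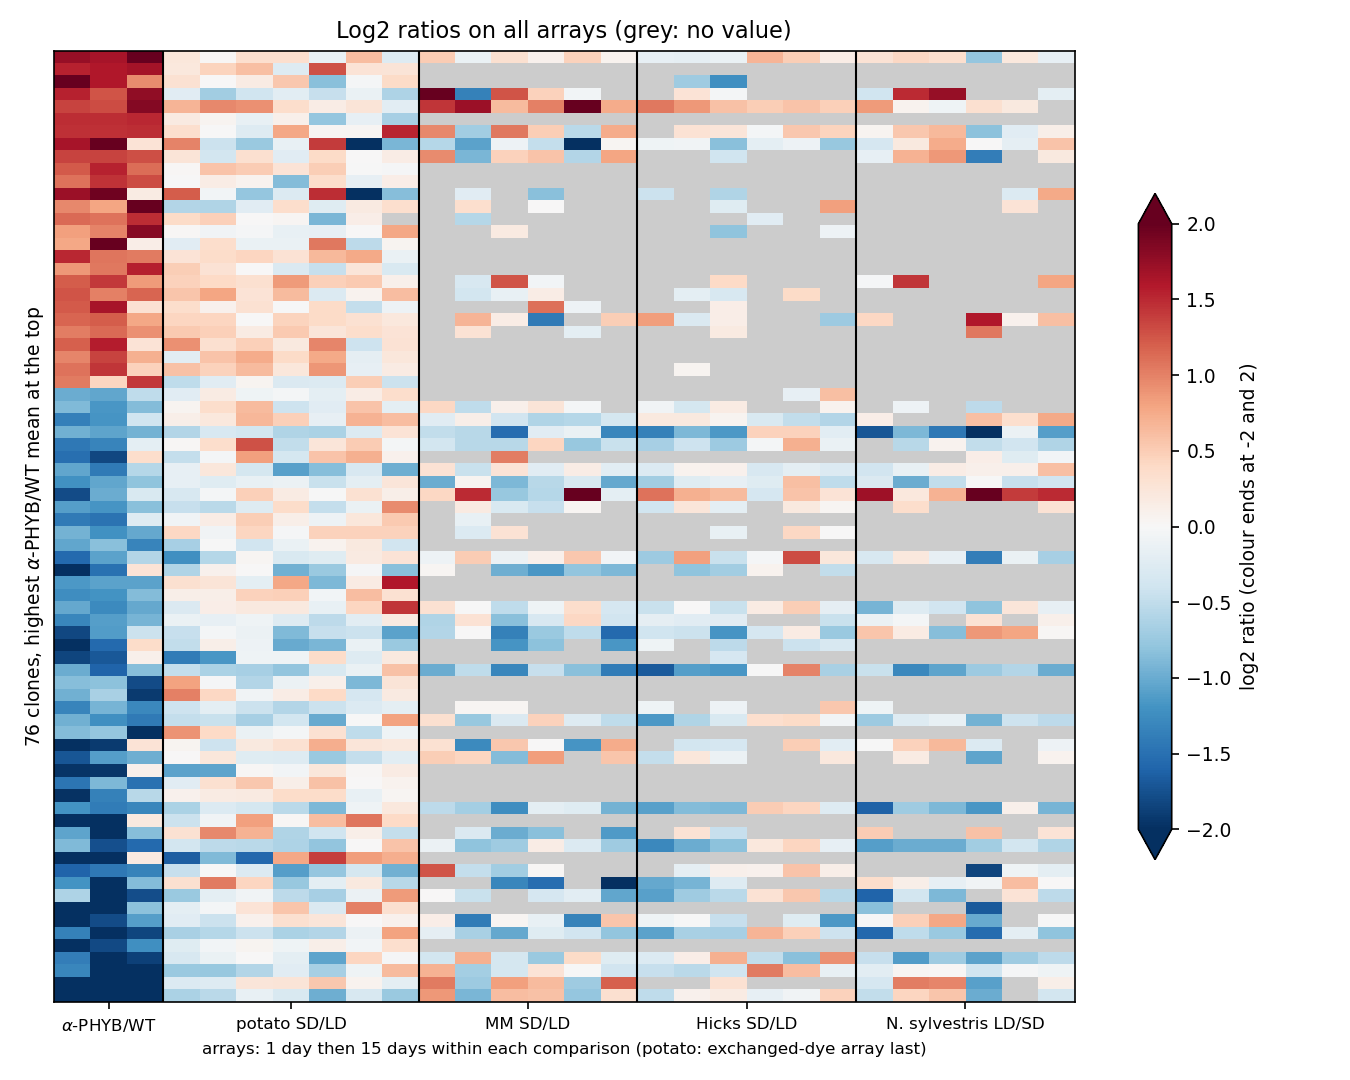
Log2 ratios of the 76 clones (rows, highest α-PHYB/WT mean at the top) on all 28 arrays (columns): α-PHYB/WT replicates 1 to 3, then SD/LD in potato, MM and Hicks and LD/SD in N. sylvestris. Red is above 0, blue below 0 and grey has no value, and 22 clones are grey on all Nicotiana arrays.

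In MM 7 of 26 members passed (26.9%), near the 22.6% of all 4355 clones tested. Of the 7, 1 was higher in SD (9.09% of all clones) and 6 were lower (13.5%). The higher one was clone 153255, with SD/LD ratios of 1.42, 1.72 and 0.63 after 1 day and 1.01, 2.37 and 0.74 after 15 days. Its mean was 1.31 (standard error 0.23, n = 6, adjusted p = 0.00772), above 0 in 6 of 6 arrays. The lower ones included clone 152917, with -0.997, -0.50 and -1.30 and then -0.46, -0.84 and -1.40, a mean of -0.92 (adjusted p = 0.00764), and clone 158810 of LOC102577637, with -0.58, 0.01 and -1.34 and then -0.74, -0.50 and -1.55, a mean of -0.79 (adjusted p = 0.0347). The other 4 were clones 153538 (-0.70), 158477 (-0.64), 161082 (-0.62) and 136649 (-0.54), with adjusted p of 0.0311 to 0.0505. With a 2-fold size limit as well 1 member passed (3.28% of all clones). Clones 152917, 153538, 158477 and 136649 are 4 of the clones with a dye term below -0.3. The dye term and the MM mean correlated with an r of 0.370 over the 26 members and 0.302 over 4229 clones. The replicate numbers paired the days in MM, and 16 members passed with the number as a fixed block (50.0% of all clones) and 2 as a random block (6.43%). Without replicate 2, 16 passed (2161 of 4451 clones in all), and without replicate 3, 1 passed (214 of 4642).

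In Hicks 1 of 21 members passed (4.76%), below the 9.81% of all 3914 clones tested. It was clone 153255 again, with 1.06, 0.86 and 0.59 after 1 day and 0.49, 0.58 and 0.47 after 15 days, a mean of 0.67 (standard error 0.12, n = 6, adjusted p = 0.0119). The clone was thus higher in SD in both lines of N. tabacum. In potato it was above 0 on all 6 arrays, with a mean of 0.55 over its 2 spots, of which 1 (0.481) was inside and the other (0.618) outside the photoperiod limit. On the array of exchanged dyes it had -0.21. In N. sylvestris its LD/SD ratios were 0.85, 0.08 and -0.08 after 1 day of LD and 0.33 and 0.19 on the 2 arrays of 15 days with a value. With a 2-fold size limit none passed (1.3% of all clones), and without replicate 2, 2 members passed (8.03%). At an unadjusted p of 0.05 or less there were 4 members (19.0%), against 23.2% of all clones.

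In N. sylvestris 8 of 18 members passed (44.4%), against 8.47% of all 2314 clones tested. A single clone was higher in LD (2.64% of all clones), clone 147938 of LOC102577429, with LD/SD ratios of 1.69, 0.21 and 0.70 after 1 day of LD and 2.12, 1.40 and 1.49 after 15 days. Its mean was 1.27 (standard error 0.24, n = 6, adjusted p = 0.0655), above 0 in 6 of 6 arrays. In MM the same clone varied in sign (0.41, 1.49 and -0.76, then -0.56, 2.004 and -0.20). The other 7 were lower in LD (5.83% of all clones). Clone 140486 had -0.47, -1.11 and -0.71 and then -1.06, -0.72 and -0.52, a mean of -0.77 (adjusted p = 0.0655).

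The remaining 6 were clones 153538 (mean -1.25), 136649 (-0.89), 158477 (-0.87), 152917 (-0.85), 155981 (-0.79) and 161189 (-0.51), with adjusted p of 0.0655 to 0.0983. All 6 have a dye term below -0.3. By the channel descriptions, Cy5 held the RNA of LD in N. sylvestris and that of SD in MM. The signs in N. sylvestris rest on a ratio direction carried over from the other arrays. Of the 6, clones 153538, 136649, 158477 and 152917 also passed in MM, with lower RNA in SD, and clones 155981 (-0.41, adjusted p = 0.111) and 161189 (-0.17, adjusted p = 0.537) did not. Of 8 tested members with a dye term below -0.3 and lower RNA in α-PHYB, 8 had a ratio below 0 in N. sylvestris and 6 passed, against 3 below 0 and 2 passing among the other 10. The dye term and the N. sylvestris mean correlated with an r of 0.632 over the 18 members and 0.459 over 2243 clones. The relation was thus not particular to the members. After subtraction of the dye term 1 of 18 members passed (0.802% of all clones), and with a 2-fold size limit 2 passed (1.82%). Without replicate 3, which removes an array of each time, none of 19 members and none of the 2451 clones passed, although the means of the 8 clones were of similar size, from -1.24 for clone 153538 to 1.35 for clone 147938. At an unadjusted p of 0.05 or less with all arrays there were 9 members and 551 of all 2314 clones (23.8%). Without replicate 2, 3 members passed (1.21% of all clones). With the replicate number, which paired the days, as a fixed block 10 members passed (29.6% of all clones), and as a random block 0 (0.0432%). The random block allows for this pairing, unlike the test that treats the 6 arrays as independent.

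In Hicks the values of these clones are given by time, without a test between the times. Clone 136649 had -1.07, -0.65 and -0.66 and then 0.68, 0.47 and -0.41, clone 155981 -1.28, -0.99 and -0.81 and then 0.21, 0.42 and -0.16, and clone 152917 -1.69, -1.09 and -1.17 and then -0.01, 0.999 and -0.65. Each of the 3 clones was below 0 on all arrays of 1 day of SD and on both sides of 0 after 15 days. From 1 day alone 13 of 28 members passed in Hicks, among 1115 clones in all (23.7%), and from 15 days alone none, among 12 (0.27%). Over the photoperiod arrays some of the clones with a dye term below -0.3 varied together. Clones 155981 and 152917 were in no member pair with an r of 0.9 or more. The pairs named next were picked from the 21 that reached it. Clones 158477 and 153538 correlated with an r of 0.933 and clones 136649 and 158477 with 0.921, each over 25 arrays, and clones 136649 and 134351 with 0.927 over 23. The points share arrays and a dye, so these values describe the arrays as well as the clones.

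For comparison, 150 clones had a spot past the α-PHYB limit but outside the photoperiod limit, and no member spot. In MM 64 of 100 tested passed (64.0%) and 60 of them were lower in SD, in Hicks 24 of 94 (25.5%), and in N. sylvestris 19 of 76 (25.0%). Their median log2 ratio was -0.67 in MM, -0.55 in Hicks and -0.36 in N. sylvestris, and that of the members was -0.16, -0.21 and -0.40. These shares are given side by side, without a test between the groups.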

How the data were processed

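The 28 two-colour arrays were hybridized, quantified and LOWESS-normalized by the authors' array service, and deposited as log2 ratios with 3 decimals, on a grid of ratios in steps of 0.01, so that ratios of clones higher in α-PHYB are coarse when large. Per the labels limma was among the processing tools; its version is not given in the sources used here. All deposited values were multiplied by -1 (α-PHYB/WT, moved/kept). The 2 spots of a clone, at spacings of 844 and 1859 in the table (905 of 905 annotated pairs), were averaged. Potato arrays had values for 8922 to 9887 clones and Nicotiana arrays for 3602 to 7333, and array medians lay between -0.07 and 0.037. The number of arrays limits the precision.

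Members and lists were chosen with earlier results of these data known. Clones with a value on every array were tested by limma (lmFit, eBayes; version 3.58.1 in R 4.3.3), with p-values adjusted over all clones tested. The array of exchanged dyes was averaged with its partner in the test between days. On simulated arrays with 100 clones changed by 0.75 and 100 by 1.5 log2 units, the fits found 45 and 92 (15 days minus 1 day, 8272 clones), 76 and 95 (MM, 4355), 85 and 98 (Hicks, 3914), and 63 and 96 (N. sylvestris, 2314). They also called 19, 20, 24 and 25 unchanged clones, in the same order. The simulated noise was independent between arrays, unlike that of the real arrays, so these counts need not hold for the data. After removal of the day means, arrays of the same number were correlated in MM (r of 0.541, 0.753 and 0.514) and N. sylvestris (0.856, 0.716 and 0.604), so the numbers pair the days there. The correlation was weaker and uneven in potato (0.417, 0.146 and 0.459) and in Hicks (0.307, -0.069 and 0.320).

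Named clones were, by rule, the 8 with the largest mean in each direction and 1 sign on 3 arrays, those passing a test (up to 10 by p), and members with a described locus, of which there were none. Other named clones, the 9 with a locus number included, were singled out after their values were seen. Alternatives were the methods' t-test, robust variance, centring, scaling, limits, day, dye correction, replicate block and each replicate left out. No sequence was used.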

Additional observations from a re-analysis of the deposited data

Results flagged for a closer look

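The difference between 15 days and 1 day of SD in potato passed limma's test for clone 159366, with 2.36 on the log2 scale. The methods' t-test found no clone, and clone 159366 did not pass without replicate 1 or replicate 2. Among the 6 potato SD/LD ratios of clone 140612, 1 value, -0.78, stood apart from the others, which lay between -0.16 and 0.18. It was replicate 2 of 15 days. This was 1 of 45 groups of 6 arrays looked at, and chance flags about 1 group in 20. No cause of either was tested.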

How the results depend on the processing

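The count of 112 spots became 18 with an α-PHYB limit of 1.5, 60 with a photoperiod limit of 0.25, 74 with the photoperiod limit met by each day, 172 with the median of the 3 α-PHYB arrays, and 30 with a size of 1 or more on each of them. It ranged from 97 to 275 without 1 α-PHYB replicate and from 87 to 119 without 1 potato SD replicate. Averaging the spots first gave 69 clones, 65 of them among the 76.

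Counts of passing members follow, with the share of all clones passing in parentheses. In the test between days they were 0 (0%) with the methods' t-test, whether adjusted by Benjamini-Hochberg or by a q-value, 0 to 2 (0% to 0.0943%) without 1 replicate, and 2 (0.52%) with the replicate number as a random block. In MM the 7 (22.6%) became 1 (3.28%) with a 2-fold size limit, 1 to 16 (4.61% to 48.6%) without 1 replicate, 16 (50.0%) and 2 (6.43%) with the replicate block fixed and random, 0 (0.102%) from 1 day alone and 2 (3.42%) from 15 days alone. In Hicks the 1 (9.81%) became 0 (1.3%) with the size limit, 2 (11.8%) with arrays scaled to 1 spread, 1 to 2 (3.9% to 8.03%) without 1 replicate, 2 (8.2%) and 3 (16.4%) with the replicate block fixed and random, 13 (23.7%) from 1 day alone, 0 (0.27%) from 15 days alone and 4 (11.6%) after dye subtraction. In Hicks arrays of the same number correlated unevenly between the days (r of 0.307, -0.069 and 0.320). In N. sylvestris the 8 (8.47%) became 3 (2.51%) with the methods' t-test and Benjamini-Hochberg adjustment, 0 (0.216%) at an adjusted p of 0.05 or less, 2 (1.82%) with the size limit, 5 (1.17%) with at least 2 values in each day, 0 to 7 (0% to 9.52%) without 1 replicate, 0 (0.0432%) with a random replicate block, 0 (0%) from 1 day alone, 1 (4.29%) from 15 days alone and 1 (0.802%) after dye subtraction. Of single clones, 2 changed sign, both after dye subtraction: 136649 in MM (0.18) and 161189 in N. sylvestris (0.0795). The cause was not tested.

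The 3 α-PHYB arrays share 1 dye order and replicate 3 differs from the others, and the other line or dye order that could tell dye from genotype was not analysed here. The dye term comes from 1 pair of arrays and is itself subject to their error. Values missing on Nicotiana arrays limit the tests to 18 to 26 members.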
